A study of Mus musculus with 6 samples.

Results

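The interferon regulatory factors are the transcription factors encoded by the Irf genes, and 8 of them were followed here by their gene symbols: Irf1, Irf2, Irf3, Irf4, Irf5, Irf7, Irf8 and Irf9. They are 8 of the 54532 genes in the deposited tables. The data are RNA-seq profiles of 6 iBMDM libraries. iBMDMs are macrophages grown from the bone marrow of WT mice and immortalized with retroviruses that carry v-raf and v-myc. Cells of 1 group received a lentivirus with a control shRNA (shControl, genotype Control) and cells of the other a lentivirus with an shRNA against Pgam5 (shPGAM5, genotype PGAM5 KD), with 3 libraries in each group. All 6 libraries came from cells stimulated with LPS (100 ng/ml) for 4 hours, so an induction over untreated cells was not measured. The study asked how PGAM5, a phosphatase of the mitochondrial outer membrane, takes part in the inflammatory response of macrophages, and how many shRNAs or infections stand behind each group was not stated in the labels, so an effect of Pgam5 and another difference between the infected cells cannot be told apart.

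All IRF proteins share a DNA-binding domain at their N-terminus with a repeat of tryptophans, and they bind elements built around the letters GAAA. IRF3, IRF5 and IRF7 are held in the cytosol until kinases downstream of Toll-like receptors or nucleic acid sensors phosphorylate them, and IRF3 and IRF7 then switch on the type I interferon genes. IRF9 has no such switch of its own and joins STAT proteins in ISGF3, the complex that carries the signal of the interferon receptor to interferon-stimulated genes, one of which is Irf7. IRF1 and IRF2 were found as an activator and a repressor at the same elements, while IRF4 and IRF8 bind DNA mostly with partners such as PU.1 and BATF in myeloid and lymphoid cells.

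The depth, read from the steps in the FPKM values, was from 18163475 to 24388909 fragments per library. Pgam5 itself had 17.1, 13.0 and 13.4 FPKM (fragments per kilobase of exon and per set number of fragments in the library) in control iBMDMs, and shPGAM5 cells had 4.33, 5.75 and 4.53 FPKM (log2 fold change -1.40, adjusted p = 0.000358 from limma). Of 8 macrophage markers, 7 had a mean of at least 1 FPKM, and Mertk was listed at 0 in every library. The sum of the 8 was 2802 to 2894 FPKM in control iBMDMs and 2526 to 2544 FPKM after PGAM5 KD. Within it the group means were lower after PGAM5 KD for Lyz2, Cd68 and Csf1r and higher for Cd14, Adgre1, Fcgr1 and Itgam, and the part of such shifts in the results was not tested. None of the 22 markers of dendritic cells, neutrophils, lymphocytes and fibroblasts reached a mean of 1 FPKM. The 7 dendritic cell markers, which bear on Irf4 and Irf8, had sums of 0.521 to 0.735 FPKM in control iBMDMs and 0.540 to 0.718 FPKM after PGAM5 KD.

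The start regions of the Irf genes are shown for the genes that rose with a STAT element near their start and for Irf7, the gene with the largest change. Each line gives the 190 bases from 250 to 61 bases before the RefSeq start, on the strand of the gene (RefSeq, GRCm38.p6). The regions are chr11:53769764-53769953 for Irf1, chr8:120736108-120736297 for Irf8 and chr8:46739495-46739684 for Irf2, all on the plus strand, and chr7:141266485-141266674 for Irf7 on the minus strand. Capitals mark matches to GAS (TTCNNNGAA), an element bound by STAT dimers, and in Irf2 also to the interferon-stimulated response element ISRE (GAAA, any 2 bases, GAAA).
Irf1: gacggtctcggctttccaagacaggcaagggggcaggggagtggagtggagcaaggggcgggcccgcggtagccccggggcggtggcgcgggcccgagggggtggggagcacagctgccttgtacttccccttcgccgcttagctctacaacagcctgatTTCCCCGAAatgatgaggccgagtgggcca
Irf8: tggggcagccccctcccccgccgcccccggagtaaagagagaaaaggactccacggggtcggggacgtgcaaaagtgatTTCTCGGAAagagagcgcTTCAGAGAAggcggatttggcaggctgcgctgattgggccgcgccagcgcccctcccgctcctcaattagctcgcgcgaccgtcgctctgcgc
Irf2: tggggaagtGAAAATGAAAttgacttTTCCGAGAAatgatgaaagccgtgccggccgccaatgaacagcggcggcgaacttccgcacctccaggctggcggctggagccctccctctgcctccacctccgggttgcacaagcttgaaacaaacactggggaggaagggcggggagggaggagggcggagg
Irf7: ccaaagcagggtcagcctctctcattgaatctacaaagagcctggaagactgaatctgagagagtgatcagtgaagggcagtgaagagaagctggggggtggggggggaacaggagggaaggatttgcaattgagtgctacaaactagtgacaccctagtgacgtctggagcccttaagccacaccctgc

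GAS was present in the start regions of 3 of the 8 genes, which is 3 of their 11 windows. It lay 90 bases before the start in Irf1, 171 and 153 bases before it in Irf8, and 224 bases before it in Irf2. The windows searched ran from 250 bases before to 50 bases after each start, and of 32851 such mouse windows 8.3% held it. ISRE was found in Irf2 only, 241 bases before the start, and in 3.44% of all regions. The composite element of Ets factors and IRFs named EICE (GGAA, any 2 bases, GAAA, in 2.72% of all regions) was also found in Irf2, where it shares letters with the ISRE, and its mirrored form IECS (GAAA, any 2 bases, GGAA, in 2.8% of all regions) lay 19 bases before the start of Irf4. Irf7 held none of these letters in its window, and no window of the 8 genes held TGANTCA (AP-1, 7.81% of all regions), TGACGTCA (CREB, 1.79%) or the κB consensus of NF-κB (0.155%). Both strands were searched, over 11 windows, since Irf1, Irf8 and Irf9 have a pair of starts each. A match describes the letters and not a bound site.

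The 8 genes spanned a wide range of levels. On the FPKM scale, which is per length of exon, the order of the control means was Irf5 (54.5), Irf7 (15.2), Irf9 (12.4), Irf3 (9.62), Irf8 (4.82), Irf2 (3.70), Irf1 (3.70) and Irf4 (0.428). Neighbours in this order did not overlap over the 3 control libraries except Irf2 and Irf1. In PGAM5 KD iBMDMs, the order was Irf5 (72.8), Irf7 (48.1), Irf9 (12.7), Irf3 (9.25), Irf8 (8.33), Irf1 (5.48), Irf2 (4.60) and Irf4 (0.326), and no neighbours overlapped. Both groups thus ranked the same 5 genes at the top, and Irf1 and Irf2 separated only after PGAM5 KD. The mean of at least 1 FPKM over the 6 libraries that was required for testing was passed by 7 of the 8 genes, and Irf4 was below it.

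**Figure D1:**
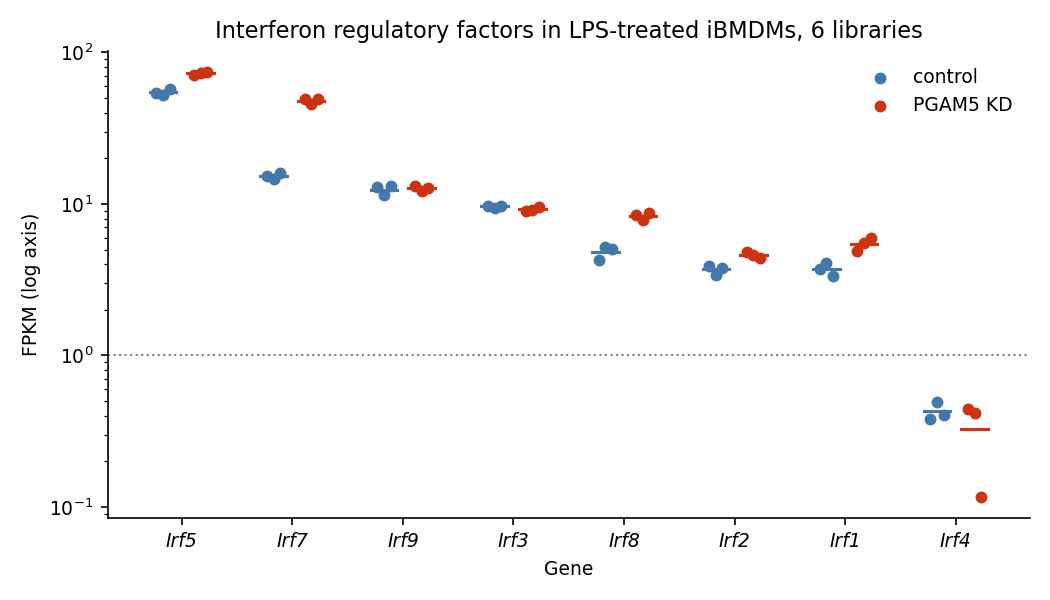
FPKM of the 8 Irf genes on a log axis, 1 point per library, with bars at the group means (n = 3 libraries per group) and a dotted line at 1 FPKM. The PGAM5 KD points lie above all control points for Irf5, Irf7, Irf8, Irf2 and Irf1, and the points of both groups mix for Irf9, Irf3 and Irf4.

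Compared with control iBMDMs, 5 of the 7 genes tested were higher in PGAM5 KD iBMDMs and 0 were lower, at an adjusted p-value under 0.05 in limma. Over all 10540 genes tested, 16.8% were higher, 14.9% were lower and 31.7% passed in either direction. Of all these calls 52.9% were rises, against 32.3% when the libraries were scaled to TPM. The median log2 fold change of the 7 genes was 0.41, against 0.013 over all genes tested. With the additional threshold of the study's methods, an absolute log2 fold change above 1, only Irf7 remained, whereas 1.32% of all genes tested passed this rule and 0.787% passed it with a rise. The libraries of the groups did not overlap for 5 of the 7 genes, which held for 47.1% of all genes tested, or 24.2% counting only those higher after PGAM5 KD. An exact two-sided permutation test of 3 libraries against 3 cannot give a p below 0.1, and it gave 0.1 for each of these 5 genes. Nothing in the labels says that the libraries came from separate cultures, so these p-values measure the spread between libraries, which may be technical.

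**Figure D2:**
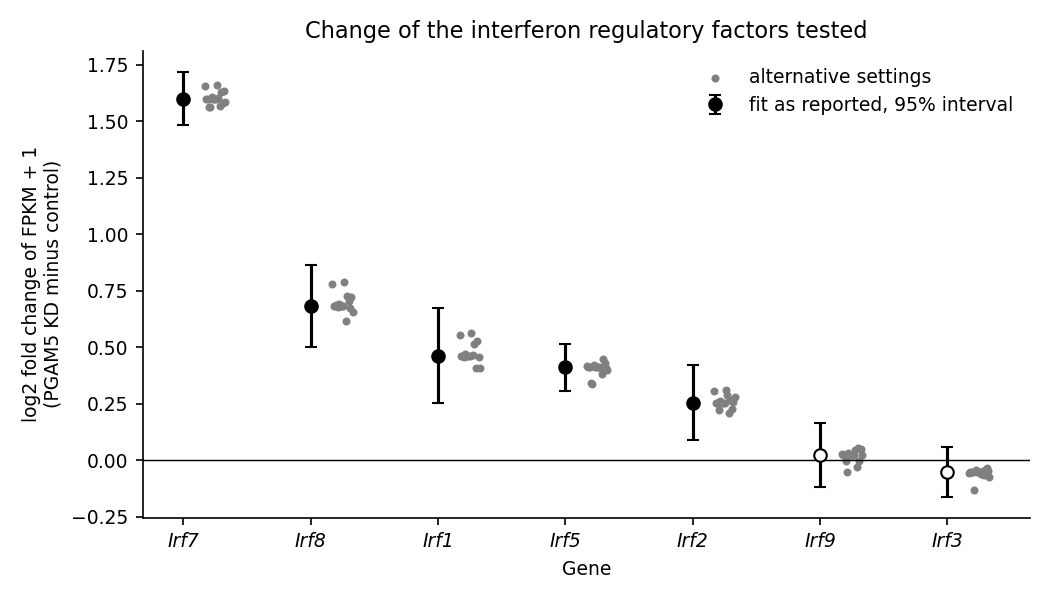
Log2 fold change of FPKM + 1 (PGAM5 KD minus control) for the 7 Irf genes tested, with 95% intervals from limma (n = 3 libraries per group). Filled points have an adjusted p-value under 0.05, open points do not, and grey points are the same value under each alternative setting. Irf7 stands at 1.60, above the intervals of all other genes, and the intervals of Irf9 and Irf3 include 0.

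Irf7, which encodes the factor that amplifies type I interferon production, had the largest rise. It lies on the minus strand of chromosome 7 of GRCm38 from 141262706 to 141266481 (ENSMUSG00000025498). Its level was 15.2, 14.5 and 15.9 FPKM in control replicates 1, 2 and 3 and 49.3, 45.7 and 49.2 FPKM in PGAM5 KD replicates 1, 2 and 3. The lowest PGAM5 KD library was thus well above the highest control library. Between 1043 and 4534 fragments per library stood behind these values. The ratio of the mean FPKM was 3.16, which is 1.60 on the log2(FPKM + 1) scale (95% interval 1.48 to 1.72, standard error 0.05, adjusted p = 7.42e-06 from limma). This was the rise in place 21 among the 10540 genes tested. Leaving out any 1 library kept it between 1.57 and 1.63.

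Irf5, the factor linked to proinflammatory cytokine genes in macrophages, had the highest level of the family in both groups. The gene is on chromosome 6 from 29526625 to 29541871 on the plus strand (ENSMUSG00000029771). Control iBMDMs had 54.0, 52.1 and 57.4 FPKM, and shPGAM5 cells had 70.7, 73.3 and 74.3 FPKM. The groups did not overlap, and the log2 fold change was 0.41 (95% interval 0.31 to 0.52, standard error 0.04, adjusted p = 0.000729 from limma). At the end of the gene, 411 bases, or 14.1% of its exon, are shared with Tnpo3 on the opposite strand. Tnpo3 had 14.7 to 15.2 FPKM in control iBMDMs and 13.6 to 14.5 FPKM after PGAM5 KD. Whether strand was kept is not settled by the labels, so fragments in the shared stretch are uncertain. The other shared stretches of the tested genes were shorter, with 135 bases in Irf1, 123 in Irf9, 88 in Irf3 and 45 in Irf7.

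Irf3, which encodes the factor activated first by TRIF and TBK1 after LPS, did not follow Irf7. The gene is on chromosome 7 from 44997648 to 45002848 on the plus strand (ENSMUSG00000003184). Its level was 9.69, 9.44 and 9.73 FPKM in control and 9.02, 9.18 and 9.55 FPKM in PGAM5 KD libraries, and both ranges overlapped. The log2 fold change was -0.052 (95% interval -0.161 to 0.057, adjusted p = 0.433 from limma, exact permutation p = 0.2). Regulation of IRF3 by phosphorylation leaves no trace in these values.

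Irf9, the DNA-binding subunit of ISGF3, was likewise close between the groups. The gene is on chromosome 14 from 55603571 to 55610030 (ENSMUSG00000002325, plus strand). The control libraries had 12.8, 11.5 and 13.0 FPKM and the PGAM5 KD libraries 13.2, 12.2 and 12.7 FPKM, so the groups overlapped almost fully. The log2 fold change was 0.024 (95% interval -0.119 to 0.167, adjusted p = 0.796 from limma, exact permutation p = 0.8), and its sign turned under quantile normalization, under TPM scaling and without control replicate 2 or PGAM5 KD replicate 1. For Irf3 and Irf9 the intervals do not show that the levels were equal, and Irf3 was at -0.13 under TPM scaling (adjusted p from limma 0.0825).

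Irf8, a lineage factor of monocytes, macrophages and dendritic cells, had the rise next in size to that of Irf7. It lies on chromosome 8 from 120736358 to 120756694 (ENSMUSG00000041515, plus strand). Its level was 4.29, 5.17 and 5.01 FPKM in control iBMDMs and 8.46, 7.84 and 8.68 FPKM after PGAM5 KD. The groups were apart, with a ratio of mean FPKM of 1.73 and a log2 fold change of 0.68 (95% interval 0.50 to 0.86, adjusted p = 0.000883 from limma). In bulk RNA, more cells with a transcript and more transcript per cell cannot be told apart.

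Irf4, the relative of Irf8 that is known from lymphocytes and alternatively activated macrophages, was barely detected. It lies on chromosome 13 from 30749226 to 30766976 (ENSMUSG00000021356, plus strand). Its level was 0.382, 0.495 and 0.407 FPKM in control and 0.445, 0.415 and 0.117 FPKM in PGAM5 KD libraries, from 14 to 49 fragments. The value of PGAM5 KD replicate 3, the library with the most fragments, was below the other 5, which lay close together. With no filter on low values, the log2 fold change was -0.12 (95% interval -0.39 to 0.16, adjusted p = 0.578 from limma), so no difference was detectable at this depth.

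Irf1, an activator of antigen presentation and other interferon-γ response genes, rose from a low level. It lies on chromosome 11 from 53770014 to 53778374 (ENSMUSG00000018899, plus strand). It had 3.70, 4.05 and 3.35 FPKM in control and 4.91, 5.54 and 5.99 FPKM in PGAM5 KD libraries. The groups did not overlap, with a log2 fold change of 0.46 (95% interval 0.25 to 0.67, standard error 0.09, adjusted p = 0.00888 from limma). Its interval was the widest of the 7 genes, with between 260 and 581 fragments per library.

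Irf2, the counterpart of Irf1 that represses many of the same elements, had the smallest rise past the threshold. The gene spans chromosome 8 from 46739732 to 46847458 (ENSMUSG00000031627, plus strand). The levels were 3.92, 3.42 and 3.77 FPKM in control and 4.82, 4.57 and 4.42 FPKM in PGAM5 KD libraries, without overlap. The log2 fold change was 0.25 (95% interval 0.09 to 0.42, adjusted p = 0.0327 from limma). This call was not stable. Leaving out single libraries ended it in 5 of 6 cases, all but control replicate 1, with an adjusted p of up to 0.0897, and it was also lost without the filter on low values (adjusted p = 0.0821) and when libraries were scaled to TPM (adjusted p = 0.0843).

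FPKM summed over the 8 genes was 100.6 to 108.6 in control iBMDMs and 158.8 to 164.9 after PGAM5 KD. The share of Irf7 in this sum was 14.4% to 14.6% in control and 28.8% to 30.7% in PGAM5 KD iBMDMs. The share of Irf5 was 51.8% to 52.8% in control and 44.0% to 46.2% in PGAM5 KD iBMDMs, although its own level was higher in the latter. The share of Irf3 was 8.96% to 9.39% in control and 5.61% to 5.79% in PGAM5 KD iBMDMs, at nearly the same FPKM. Shares of a sum move together, so these values describe the make-up of the family and are not separate changes.

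The genes were also set against Irf3 within each library, as log2 ratios of FPKM + 1, where the added 1 draws the ratios of low genes toward 0. Relative to Irf3, Irf7 was at a log2 ratio of 0.61 ± 0.04 in control and 2.26 ± 0.07 in PGAM5 KD libraries (SD, n = 3). The ratio of Irf8 to Irf3 moved from -0.87 ± 0.13 to -0.14 ± 0.06, and that of Irf5 from 2.38 ± 0.05 to 2.85 ± 0.02. The ratio of Irf1 moved from -1.18 ± 0.13 to -0.66 ± 0.09, and that of Irf2 from -1.18 ± 0.06 to -0.87 ± 0.09. For these 5 genes the libraries of the groups did not overlap, as was already so for their FPKM alone. A share over all genes was not computed for the ratios. For Irf9 (0.34 ± 0.07 and 0.41 ± 0.07) and Irf4 (-2.90 ± 0.08 and -2.96 ± 0.24) the libraries of the groups overlapped. The ratio of Irf4 rests largely on the added 1, and its difference between the groups was -0.064 with it and -0.361 with an added 0.1. The ratios show unequal change among the genes and not that Irf3 itself was constant.

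**Figure D3:**
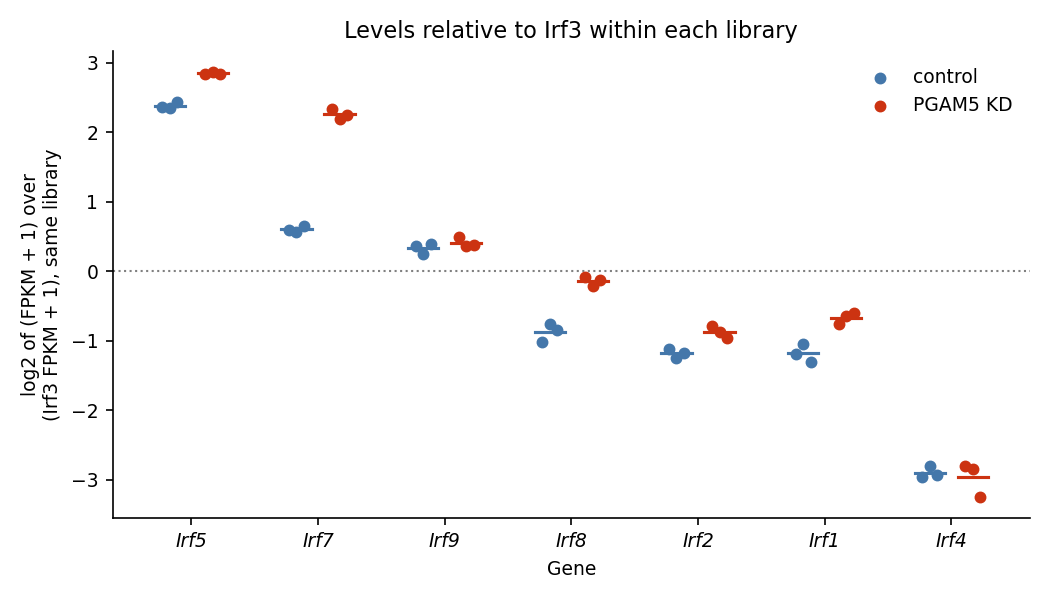
Log2 ratio of FPKM + 1 of each Irf gene to that of Irf3 in the same library, 1 point per library, with bars at the group means (n = 3 libraries per group) and a dotted line at equal levels. Irf7 moved from 0.61 to 2.26, and Irf8 came from below Irf3 to close to it at -0.14.

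The genes whose profile over the 6 libraries was closest to that of Irf7 were Tnfrsf13b, Siglec1 and Ptgs2. Closeness was measured as the Euclidean distance between log2(FPKM + 1) profiles, each centred on its own mean, among 9331 protein-coding genes, and came to 0.174, 0.199 and 0.207. Tnfrsf13b, which encodes the TACI receptor, was at 0.582, 0.647 and 0.596 FPKM in control and 3.90, 3.77 and 3.59 FPKM in PGAM5 KD libraries. Siglec1, which encodes the macrophage receptor sialoadhesin, was at 0.832, 0.701 and 1.01 FPKM and at 4.15, 4.03 and 4.08 FPKM. Ptgs2, which encodes cyclooxygenase 2, was at 38.7, 38.3 and 35.5 FPKM and at 124, 117 and 114 FPKM. With 2 groups the distance reads mostly the size of the group difference. Tnfrsf13b and Siglec1 passed the filter only through their level after PGAM5 KD, and their closeness to Irf7 depends on the added 1, since their log2 fold changes of 1.56 and 1.46 reached 2.60 and 2.28 under the alternatives.

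The genes that act around the IRFs were described in lists. Over all lists, 89 of 127 genes were tested, and 47 of these rose and 9 fell after PGAM5 KD at an adjusted p-value under 0.05 in limma, where 16.8% of all genes tested rose and 14.9% fell. Under TPM scaling 35 rose and 14 fell. Of the 23 genes of signaling upstream of the IRFs, which are receptors, adaptors, kinases and nucleic acid sensors, 5 were higher, 1 was lower and 17 were not past the threshold, with a median log2 fold change of 0.077 against 0.013 over all genes tested. The share called, 26.1%, was no higher than the 31.7% of all genes tested, and under TPM scaling 2 were higher and 3 lower. The rises with the largest size were those of the RNA sensors Ddx58 (RIG-I, 12.3 ± 0.673 to 23.4 ± 0.523 FPKM, SD, n = 3) and Ifih1 (MDA5, 9.81 ± 0.424 to 15.6 ± 0.545 FPKM), with log2 fold changes of 0.87 and 0.62. The STING gene Tmem173, the TRIF gene Ticam1 and the TBK1 adaptor gene Azi2 followed with 0.43, 0.25 and 0.21, and each of these calls was lost without some single libraries and under TPM scaling. Without control replicate 2, control replicate 3 or PGAM5 KD replicate 3, the 6 calls of this list became 3, 3 and 2, and without the filter on low values 3. The 1 lower gene was Traf3 (-0.17, adjusted p = 0.0489 from limma), named after its value was seen, and this call was lost without the filter on low values, with median centring and without any single library other than PGAM5 KD replicate 1. The values of the kinase genes themselves were 24.0 ± 0.515 and 22.4 ± 0.600 FPKM for Tbk1 and 16.6 ± 0.496 and 16.3 ± 0.496 FPKM for Ikbke in control and PGAM5 KD libraries, and neither was past the threshold (adjusted p = 0.118 and 0.682 from limma). The groups of Tbk1 did not overlap, which held for 47.1% of all genes tested, and those of Ikbke did. These kinase genes were also chosen after their values were seen.

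Of 14 partners of the IRFs on DNA, 11 were tested, and 5 were higher and 3 lower, with a median log2 fold change of 0.074. The share called was 72.7%, against 31.7% of all genes tested, and under TPM scaling 4 were higher and 4 lower. Batf, which encodes an AP-1 factor that binds with IRF4 and IRF8, was at 1.64, 1.52 and 1.71 FPKM in control and 8.61, 10.7 and 10.3 FPKM in PGAM5 KD libraries. This is 2.04 on the log2 scale (standard error 0.09, adjusted p = 2.27e-05 from limma), larger than that of any Irf gene, and the libraries of the groups lay far apart. The ISGF3 subunit gene Stat2 rose by 0.85 on the log2 scale, from 6.28 ± 0.559 to 12.1 ± 0.225 FPKM (SD, n = 3), whereas its partner Irf9 was not past the threshold. The corepressor gene Irf2bp2 fell by 0.51 (9.96 ± 0.327 to 6.69 ± 0.247 FPKM), and the acetyltransferase gene Ep300 by 0.49 (11.8 ± 0.177 to 8.13 ± 0.383 FPKM). Spi1, chosen after its values were seen, encodes PU.1, the DNA partner of IRF4 and IRF8, and was at 169.8 ± 3.84 FPKM in control and 164.6 ± 7.47 FPKM in PGAM5 KD libraries (adjusted p = 0.431 from limma).

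Of 13 genes that restrain IRFs or their signal, all were tested, and 4 were higher, 1 was lower and 8 were not past the threshold (median log2 fold change 0.087). The share called, 38.5%, was near the 31.7% of all genes tested, and under TPM scaling 2 were higher and 2 lower. Usp18, which blocks the interferon receptor and is itself an interferon-stimulated gene, rose from 29.4 ± 1.08 to 62.9 ± 3.09 FPKM (log2 fold change 1.07, adjusted p = 2.45e-05 from limma). The ubiquitin ligase gene Trim21 rose by 0.48. The rise of Eif4ebp1, 0.21, was lost without some single libraries and under TPM scaling. The 5 calls of the list became 3 without control replicate 3, PGAM5 KD replicate 2 or PGAM5 KD replicate 3 and also without the filter on low values. Eif4ebp2, whose product limits the translation of Irf7 mRNA, fell by 0.28 (25.3 ± 0.304 to 20.7 ± 0.275 FPKM).

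The interferon genes themselves were near or at the floor. Of 20 interferon genes, 19 were listed at 0 in every library: Ifna1, Ifna2, Ifna4, Ifna5, Ifna6, Ifna7, Ifna9, Ifna11, Ifna12, Ifna13, Ifna14, Ifna15, Ifna16, Ifnab, Ifne, Ifnk, Ifnl2, Ifnl3 and Ifng. The Ifna genes are nearly identical copies of each other, so fragments that match several of them may have been left out by the authors' counting. Ifnb1, which encodes interferon-β, was at 2.06, 0.661 and 0.615 FPKM in control and 0.425, 0.514 and 1.26 FPKM in PGAM5 KD libraries. These values came from 7 to 28 fragments, the groups overlapped, and the gene was below the filter (exact permutation p = 0.5). The higher level of Irf7 in PGAM5 KD iBMDMs thus stood beside no detectable difference in Ifnb1 at this time and depth.

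Genes known as targets of single IRFs were described in the same way. Of 18 genes driven by ISGF3, 17 were tested and 17 were higher, against 16.8% of all genes tested, with a median log2 fold change of 0.85. Oasl2 passed the filter only through its level after PGAM5 KD (0.713 and 1.52 FPKM in control and PGAM5 KD iBMDMs). The number called was 15 under TPM scaling and without PGAM5 KD replicate 1 or 3, and 16 without control replicate 1 or 3. Rsad2 (viperin, 1.51), Ifit1 (1.45), Ifi44 (1.40), Mx2 (1.30) and Isg15 (1.28) had the largest rises, and Rsad2 went from 7.61, 8.39 and 7.61 FPKM in control to 23.5, 25.4 and 24.0 FPKM in PGAM5 KD libraries. Of 7 genes that IRF3 can switch on directly, 4 of which are also in the ISGF3 list, 6 were higher (median 0.97), among them Ifit2 (0.97) and Ifit3 (0.95). The remaining gene was Cxcl10, with 31.9 ± 0.473 and 37.5 ± 3.93 FPKM and an adjusted p = 0.0583 from limma, named after its value was seen. Its groups did not overlap, and it was called with a mean FPKM of at least 5, with protein-coding genes only, with voom and without PGAM5 KD replicate 2.

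Of 16 genes linked to IRF1, 11 were tested, and 9 were higher and 1 lower (median 0.49), against 16.8% and 14.9% of all genes tested. The rises with the largest size were those of the peptide transporter gene Tap1 (0.87), Gbp3 (0.84), the immunoproteasome genes Psmb8 (0.76) and Psmb9 (0.50), and Casp1 (0.57). The lower gene was Nos2 (94.7 ± 3.42 to 85.2 ± 3.24 FPKM, -0.15, adjusted p = 0.0329 from limma), named after its value was seen. This call was lost without the filter on low values, without the mean-variance trend and without control replicate 1 or 3 or PGAM5 KD replicate 2 or 3. The genes of this list below the filter, named after their values were seen, went both ways. Without overlap, Il15 was higher (mean 0.383 in control and 0.773 FPKM in PGAM5 KD libraries) and Il18bp lower (0.564 and 0.236 FPKM). The groups overlapped for Gbp2, Gbp5 and Ciita.

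Of 11 genes linked to IRF8, 10 were tested, and 5 were higher and 3 lower (median 0.091), against 16.8% and 14.9% of all genes tested. Under TPM scaling 4 were higher and 4 lower. Il18 and Pml rose by 1.01 and 0.71, and Ctsc by 0.50. The receptor gene Csf1r fell by 0.64 (231 ± 8.17 to 148 ± 3.14 FPKM), and Cybb, the gene of the NADPH oxidase subunit gp91phox, fell by 0.50 (102 ± 3.19 to 72.2 ± 2.24 FPKM). The direction of Irf8 was thus not shared by all genes of its list.

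Of 6 cytokine genes linked to IRF5, 3 were tested and called higher, against 16.8% of all genes tested, and in 10 of 16 alternatives 2 were called. Il6 passed the filter only through its level after PGAM5 KD. Il6 was at 0.340, 0.694 and 0.359 FPKM in control and 6.75, 7.98 and 7.41 FPKM in PGAM5 KD libraries, and Il1b rose from 6.51 ± 0.251 to 32.1 ± 1.85 FPKM, with log2 fold changes of 2.52 and 2.14. The value of Il6, low in control iBMDMs, reached 4.01 with voom on recovered fragments. The rise of Tnf, 0.16 from 319 ± 16.0 FPKM, was 0.0036 under quantile normalization (adjusted p = 0.956 from limma) and was also lost when any 1 of 5 libraries was left out. Il12a was listed at 0 in every library, and Il12b and Il23a were at or below 0.243 FPKM in any library. Of 7 genes linked to IRF4, which mark alternative activation, only Ccl22 was tested (2.38 ± 0.645 and 2.20 ± 0.569 FPKM, adjusted p = 0.777 from limma), and Chil3, Retnla and Fn1 were listed at 0, at the same low end as Irf4 itself.

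**Figure D4:**
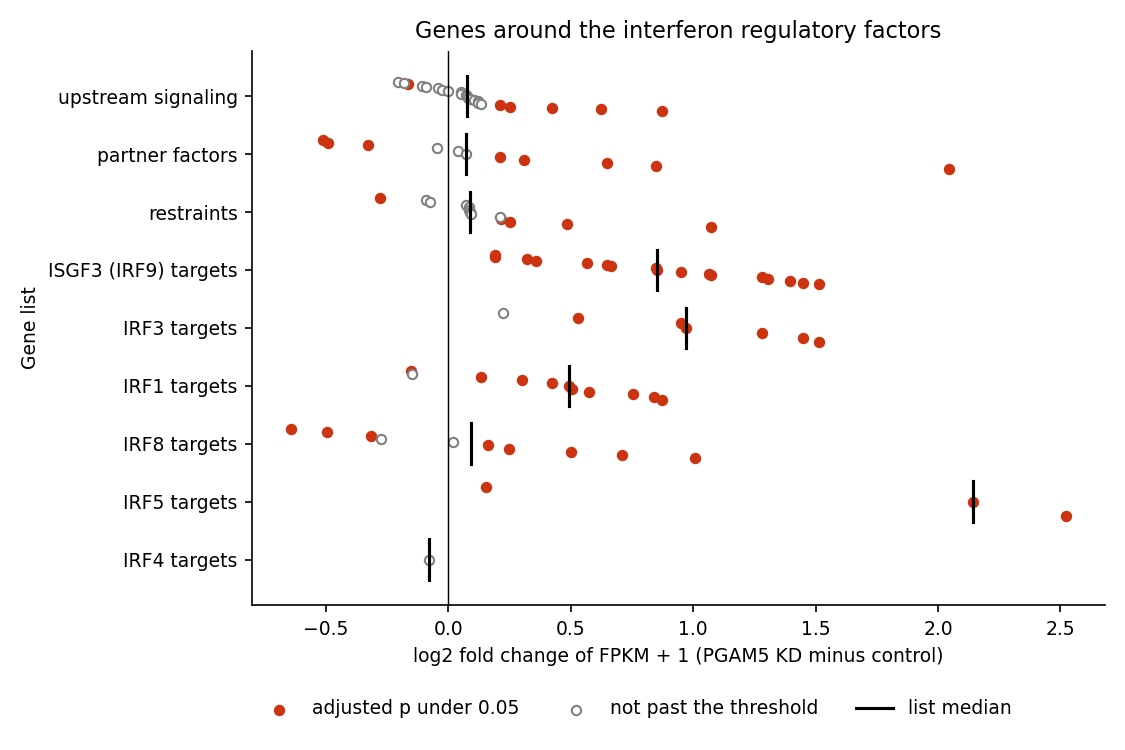
Log2 fold change of FPKM + 1 (PGAM5 KD minus control, n = 3 libraries per group) of each tested gene of 9 lists, with filled points at an adjusted p-value under 0.05 in limma and black bars at the list medians. The 17 ISGF3 targets tested lie to the right of 0 with a median of 0.85, and the upstream signaling genes gather around 0 with a median of 0.077. Some genes stand in several lists.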

How the data were processed

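RNA-seq of 6 libraries of LPS-treated iBMDMs was analysed, 3 control and 3 PGAM5 KD, grouped by their labels. The authors deposited FPKM, fragments scaled by exon length and library size, 1 table per library. The submitters' processing notes name HISAT2 2.0.5, featureCounts 1.5.0-p3 and the build mm10, and whether strand was used in counting is not given in the sources used here. Of 54532 gene identifiers, 54495 were in GENCODE M21 (GRCm38), which gave symbols, coordinates and exon lengths. The annotation has Cgas for the written name Mb21d1. FPKM multiplied by exon length fell within 0.01 of whole multiples of 1 fragment for 96.8% to 97.1% of values under 1000 fragments, which gave the depth. The FPKM sums ran from 304393 to 304889 for control iBMDMs and from 317936 to 324298 after PGAM5 KD, and TPM scaling makes them equal.

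Log2(FPKM + 1) was fitted with limma 3.58.1 in R 4.3.3 (two-sided, with a mean-variance trend and adjustment after Benjamini and Hochberg) over 10540 genes whose FPKM averaged 1 or more. No count model was used for this main fit, since the unit is FPKM. On this scale the fold changes of low genes come out too small. The fit was tested on simulated data with far fewer changed genes than were called here, which checks the code and not these calls. Exact permutation tests, tables and figures used Python 3.11.15, scipy 1.17.1, pandas 2.3.3 and matplotlib 3.10.9. Alternatives were a pseudocount of 0.1, no filter, a stricter filter (mean FPKM of 5 or more), quantile normalization, TPM, median centring, no trend, a replicate block, protein-coding genes only, voom on the recovered fragments and leaving out each library.

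Named genes were the 8 Irf genes, Pgam5, overlapping genes, the interferon genes, at most 5 called genes per list by size, and the 3 profiles closest to Irf7. Motifs and genes marked so were chosen after values were seen. The Irf genes, the lists and the tests were chosen with earlier results of these data known. Some genes that this rule names are not reported here.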

Additional observations from a re-analysis of the deposited data

How the results depend on the processing

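The calls of Irf1, Irf5, Irf7 and Irf8 kept their direction and their side of the threshold under each alternative that tested them (a mean FPKM of at least 5 left out Irf1 and Irf2). The number of Irf genes called was 5, became 3 with a mean FPKM of at least 5, and was 4 to 5 when each library was left out. Irf2 kept its direction but not its call with no filter on low values (log2 fold change 0.254, adjusted p = 0.0821 from limma), under TPM scaling (0.220, adjusted p = 0.0843) and with a replicate block (0.254, adjusted p = 0.0636), and ran from 0.210 to 0.287 with single libraries left out. Irf9, never past the threshold, was -0.00145 under quantile normalization, -0.0518 under TPM scaling and ran from -0.0297 to 0.0555 with single libraries left out. The ratio of Irf4 to Irf3 differed between the groups by -0.064, by -0.361 with a pseudocount of 0.1, and by -0.148 to 0.0761 with single libraries left out. The cause of these shifts was not tested, except that fewer genes were tested under the stricter filter. The block follows the shared replicate numbers. Deviations of same-numbered libraries correlated at -0.0197, 0.0161 and -0.0516, so no pairing was seen, but these values cannot show that the libraries were unpaired. With the block, 2652 genes were called in place of 3346, the call of Nos2 was lost, and the genes higher became 15 in place of 17 for ISGF3, 8 in place of 9 for IRF1 and 4 in place of 5 for the partners. Of all calls, 52.9% were higher in PGAM5 KD libraries, against 32.3% under TPM scaling, which moved the median of all genes from 0.0135 to -0.0601. Genes with both thresholds numbered 139, and 233, 261 and 277 under TPM scaling, a pseudocount of 0.1 and voom, 101 with protein-coding genes only and 76 with a mean FPKM of at least 5. Irf7 passed both in each of these fits. Precision for Irf4 and Ifnb1 is limited by their few fragments.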
